A study of Mus musculus with 15 samples.

Results

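The 9 microRNA hairpins described here encode the neural microRNAs miR-9 (mmu-mir-9-1, mmu-mir-9-2 and mmu-mir-9-3), miR-124 (mmu-mir-124-1, mmu-mir-124-2 and mmu-mir-124-3), miR-128 (mmu-mir-128-1 and mmu-mir-128-2) and miR-219a (mmu-mir-219a-2). The species prefix mmu is left out from here on. They were chosen by name, with earlier results of these data known, from 1226 hairpins listed in the deposited mouse table. Of these 934 had a value above 0 in some library. Small RNA was sequenced from 15 libraries of C57BL/6 mouse embryos, wild type (WT) or knocked out (KO) for miR-302, a microRNA cluster of pluripotent cells and the early embryo. At embryonic day 7.5 (E7.5) there were 2 WT and 2 KO libraries of whole embryos. At E8.5, cells positive for Wnt1-Cre, which is active in the dorsal neural tube and in neural crest, were sorted in 3 WT and 4 KO libraries. At E9.5, cells positive for Sox10, a transcription factor of neural crest after it has left the tube, were sorted in 2 WT and 2 KO libraries. Every change of stage is thus also a change of cell source, and these cannot be told apart. The labels name the marks used for sorting and not the reporter alleles behind them, and do not say whether libraries of a group came from different litters or pooled embryos. The p-values therefore describe the spread among these libraries only, which may be technical.

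A microRNA is cut from a hairpin precursor and guides silencing of messenger RNAs that pair with its seed, the stretch from base 2 to base 8. miR-124 is the abundant microRNA of neurons and represses transcripts of non-neuronal cells, among them that of the splicing factor Ptbp1. miR-9 is made in neural progenitors and young neurons and acts on progenitor regulators such as Nr2e1 and Hes1. miR-128 is enriched in brain, where it tempers neuronal excitability. miR-219a is best known in oligodendrocyte precursors, whose differentiation it promotes by repressing Pdgfra and Sox6.

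The mature sequences decide which copies can be told apart by sequencing, so they are shown first, credited to RefSeq on GRCm38.p6 (the assembly also called mm10). The table held 6 of the 9 members. Capitals mark the seed.
miR-9-5p: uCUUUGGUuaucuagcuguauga
miR-9-3p: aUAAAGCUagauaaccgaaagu
miR-128-3p: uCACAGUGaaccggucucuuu
miR-128-1-5p: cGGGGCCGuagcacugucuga
miR-128-2-5p: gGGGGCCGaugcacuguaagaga
miR-219a-5p: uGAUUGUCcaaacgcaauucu
Both arms of miR-9 are the same in its 3 hairpins, and the 3′ arm of miR-128 is the same in its 2 hairpins. The 5′ arms of miR-128 share a seed but differ in length, 21 and 23 bases. miR-219a-5p comes from mir-219a-2 and also from mir-219a-1, a hairpin outside the 9 that is described beside it.

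The hairpins themselves show what is left to separate the copies. Capitals mark the mature arms that RefSeq gave. For mir-219a-2 it gave only the 5′ arm, so a 3′ arm of that hairpin is not marked. The 3′ arm of mir-219a-1 is marked here and was not listed above.
mir-9-1: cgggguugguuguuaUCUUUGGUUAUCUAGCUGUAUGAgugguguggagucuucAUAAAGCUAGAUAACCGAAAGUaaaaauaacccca
mir-9-2: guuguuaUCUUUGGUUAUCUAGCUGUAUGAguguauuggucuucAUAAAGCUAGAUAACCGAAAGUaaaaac
mir-9-3: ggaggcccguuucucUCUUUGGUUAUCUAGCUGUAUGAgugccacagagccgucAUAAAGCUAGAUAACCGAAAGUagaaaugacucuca
mir-128-1: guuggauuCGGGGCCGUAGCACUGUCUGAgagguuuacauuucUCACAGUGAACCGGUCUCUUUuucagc
mir-128-2: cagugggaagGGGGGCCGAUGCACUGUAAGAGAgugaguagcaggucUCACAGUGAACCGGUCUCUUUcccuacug
mir-219a-2: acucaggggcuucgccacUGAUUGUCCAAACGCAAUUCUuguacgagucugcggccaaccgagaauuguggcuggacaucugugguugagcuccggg
mir-219a-1: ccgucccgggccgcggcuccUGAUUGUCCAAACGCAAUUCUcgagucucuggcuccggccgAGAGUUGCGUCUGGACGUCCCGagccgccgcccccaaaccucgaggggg
The longest run shared without a mismatch was 33 bases between mir-9-1 and mir-9-2, and 26 bases between mir-9-3 and either of them. It was 23 bases between the miR-128 hairpins and 22 bases between mir-219a-1 and mir-219a-2.

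On GRCm38 mir-9-1 lies at chr3:88215598-88215686 (plus strand), inside an intron of the long non-coding RNA gene Gm3764. mir-9-2 lies at chr13:83738814-83738885 (plus strand) and overlaps an exon of the long non-coding RNA gene C130071C03Rik. mir-9-3 lies at chr7:79505264-79505353 (plus strand), inside an intron of its host transcript Mir9-3hg. mir-128-1 lies at chr1:128202361-128202430 (plus strand), inside an intron of the protein-coding gene R3hdm1. mir-128-2 lies at chr9:112118636-112118711 (minus strand), inside an intron of Arpp21, a protein-coding gene. mir-219a-2 lies at chr2:29845631-29845727 on the minus strand, and GENCODE M21 places no host gene over it. mir-219a-1 lies at chr17:34024983-34025092 on the minus strand and overlaps an exon of the long non-coding RNA gene Gm26940. The 5 hosts of members are all transcribed from the strand of their hairpin.

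Reads of the copies followed each other closely within miR-9. Over the 15 libraries mmu-mir-9-1 held 746 reads, mmu-mir-9-2 held 736 and mmu-mir-9-3 held 790. The ratio of mir-9-2 to mir-9-1 stayed between 0.952 and 1.07 in the libraries with reads, and the counts were equal in 5 of 15 libraries. For mir-9-3 the ratio to mir-9-1 ranged more widely, from 0.400 to 1.62. The rows of mir-9-1 and mir-9-2 are therefore nearly a single measurement given 2 times, and that of mir-9-3 is not.

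miR-124 behaved in the same way for mir-124-1 (890 reads) and mir-124-3 (905 reads), whose ratio ran from 0.838 to 1.17. mir-124-2 was lower, with 477 reads, and its ratio to mir-124-1 moved between groups. The pooled ratio was 0.296 in E7.5 WT, 0.304 in E7.5 KO, 0.521 in E8.5 WT, 0.802 in E8.5 KO, 0.471 in E9.5 WT and 0.476 in E9.5 KO. At E8.5 the ratio per library was 0.432, 0.50 and 0.566 in WT and 0.562, 0.907, 0.667 and 0.875 in KO, the third of these from 2 and 3 reads. Ranges overlapped by a single KO library. The mean ratios, 0.753 ± 0.166 (SD, n = 4) in KO and 0.499 ± 0.0666 (n = 3) in WT, are a description: no exact test of 4 against 3 libraries can give a p below 0.0571.

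The miR-128 copies held 1613 reads (mir-128-1) and 1441 reads (mir-128-2). Their pooled ratio was 0.373 in E7.5 KO and between 0.670 and 1.11 in the other 5 groups. In the E7.5 KO libraries this rests on 4 and 15 reads of mir-128-2 against 9 and 42 of mir-128-1. mir-219a-2 (257 reads) and mir-219a-1 (358 reads) did not follow each other. mir-219a-2 had 0 reads in all 4 E7.5 libraries, where mir-219a-1 had 5, 10, 0 and 1. In the E9.5 KO libraries mir-219a-2 had 14 and 17 reads against 2 and 1 for mir-219a-1.

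**Figure D1:**
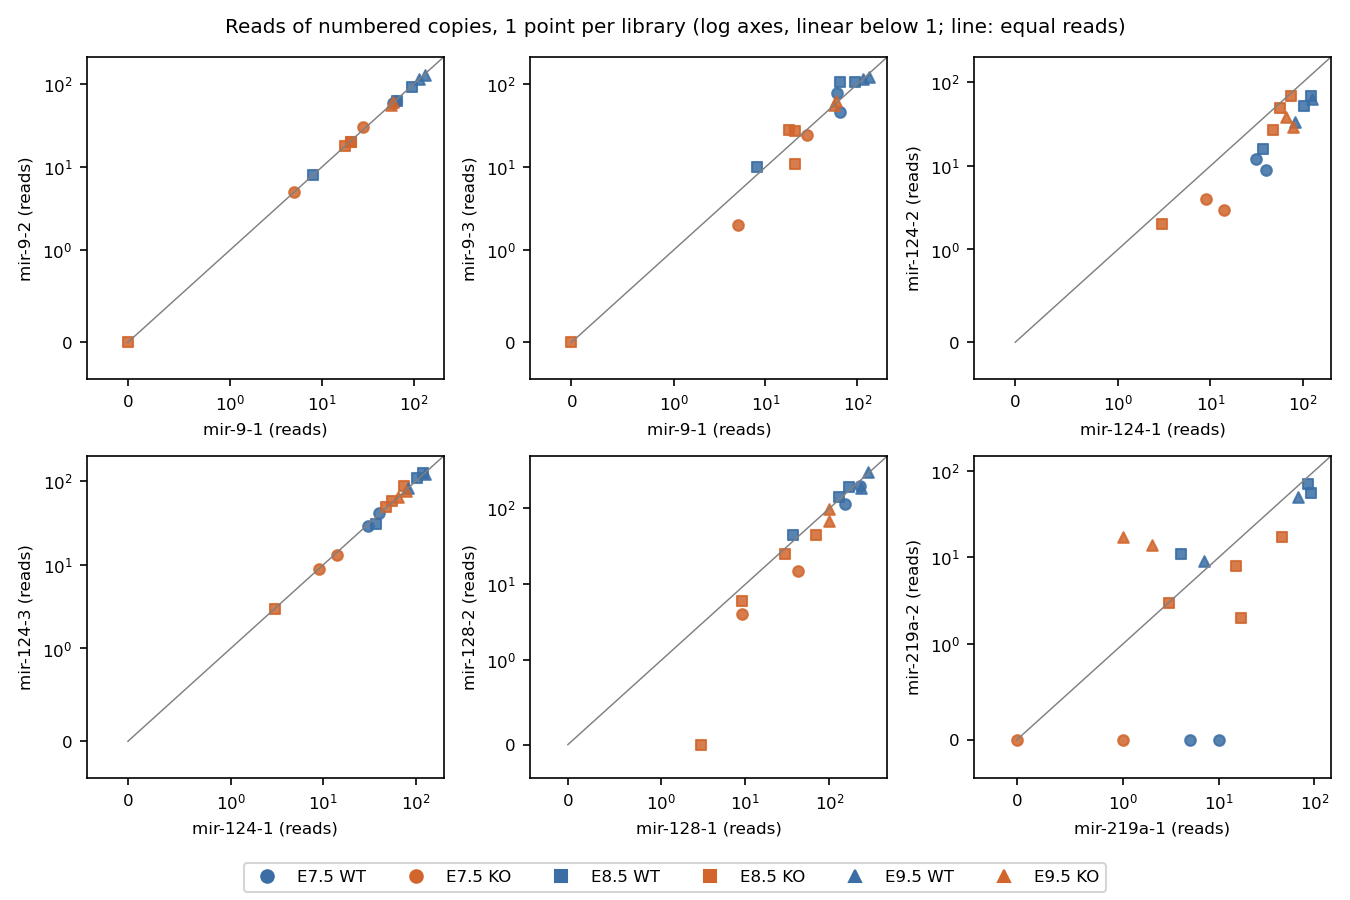
Reads of numbered copies, 1 point per library, on log axes that are linear below 1 read. The line marks equal reads. mir-9-2 lies on the line with mir-9-1, mir-124-2 lies below mir-124-1 in each library, and the 2 mir-219a hairpins scatter on either side.

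The libraries held 1706 to 323389 reads, and the number of reads limits the precision of every value. At E7.5 and E9.5 each KO library was shallower than each WT library. E8.5 KO replicate 3 had 1706 reads, so that 1 read was worth 19.3 normalized counts, and replicate 4 had 9757 reads. The knocked-out mir-302 hairpins (a, b, c and d) had a summed level of 4001 and 14226 normalized counts in E7.5 WT, beside 31.0 and 13.2 in KO. At E8.5 the sum was 3875 to 6522 in WT and 0 to 19.3 in KO. At E9.5 the KO libraries still held 148 and 75.4, against 338 and 466.3 in WT, so at E9.5 the knocked-out hairpins were lower but not lost. Each label carries a number whose meaning is not given. All E7.5 libraries share 1 such number. Among the E8.5 libraries KO replicates 2 and 3 share a number, and so do KO replicate 4 and WT replicate 2. At E9.5 each genotype has a number of its own, so that number and genotype cannot be told apart there.

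Levels are given as normalized counts, that is reads divided by the authors' size factor of each library, and for a family as the mean over its numbered copies. miR-9 stood at 29.8 and 24.0 in E7.5 WT and at 9.53 and 30.0 in E7.5 KO. At E8.5 it stood at 15.9, 32.9 and 19.98 in WT and at 33.6, 16.2, 0 and 64.7 in KO. The 0 came from replicate 3, where 3 reads would have been 58.0 normalized counts, so a level like that of WT was not detectable there. At E9.5 miR-9 stood at 18.7 and 35.9 in WT and at 88.5 and 162 in KO. The 5 other groups overlapped, and the E9.5 KO libraries lay above all 13 others.

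miR-124 stood at 15.8 and 8.78 in E7.5 WT and at 23.8 and 8.04 in E7.5 KO. At E8.5 it stood at 51.5, 30.0 and 27.2 in WT and at 65.2, 55.0, 51.6 and 203 in KO. Each E8.5 library was thus above each E7.5 library. At E9.5 the level was 15.3 and 20.8 in WT and 82.6 and 177 in KO. By group mean the order from low to high was E7.5 WT (12.3 ± 4.94, n = 2), E7.5 KO (15.9 ± 11.2, n = 2), E9.5 WT (18.04 ± 3.90, n = 2), E8.5 WT (36.2 ± 13.3, n = 3), E8.5 KO (93.6 ± 73.0, n = 4) and E9.5 KO (130 ± 66.7, n = 2). The first 3 of these overlapped, and so did the last 2. The highest E8.5 WT library (51.5) was just under the lowest E8.5 KO library (51.6, from 2 or 3 reads of each hairpin).

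miR-128 stood at 112 and 49.2 in E7.5 WT and at 15.5 and 31.2 in E7.5 KO, without overlap. At E8.5 it stood at 75.3, 46.1 and 46.6 in WT and at 89.9, 19.7, 29.0 and 28.0 in KO, with 3 of the 4 KO libraries below all WT libraries. At E9.5 it stood at 43.6 and 66.1 in WT and at 122 and 286 in KO. The 3 WT groups overlapped each other (means 80.6 ± 44.4, 56.0 ± 16.8 and 54.9 ± 15.9).

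miR-219a is shown by mir-219a-2 alone, which gives the level of 1 hairpin and not of all miR-219a. In the 4 E7.5 libraries mir-219a-1 had 5, 10, 0 and 1 reads, and mir-219a-2 had 0 of 400500. At E8.5 it stood at 20.2, 23.7 and 14.4 in WT (11, 70 and 56 reads) and at 3.15, 12.1, 58.0 and 29.8 in KO (2, 17, 3 and 8 reads). At E9.5 it stood at 7.35 and 2.81 in WT (50 and 9 reads) and at 20.5 and 49.3 in KO (14 and 17 reads). The E9.5 WT libraries lay below all E8.5 WT libraries. In KO the E8.5 and E9.5 ranges overlapped.

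**Figure D2:**
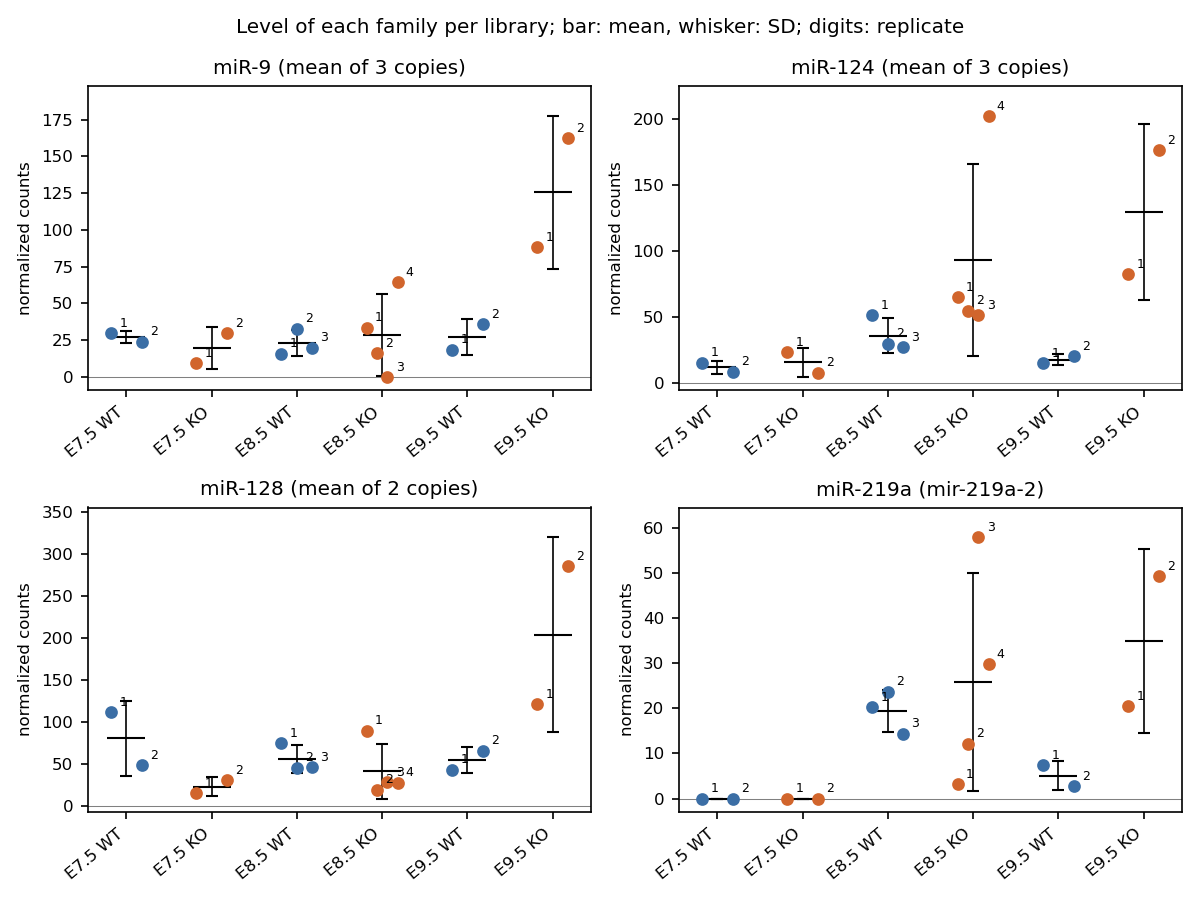
Normalized counts of each family in each library (points, blue WT and orange KO, with the replicate number), with the mean (bar) and SD (whisker) of each group. The E9.5 KO libraries sit at 88.5 and 162 for miR-9, 82.6 and 177 for miR-124, 122 and 286 for miR-128 and 20.5 and 49.3 for mir-219a-2, above the E9.5 WT libraries in each panel. The miR-219a panel shows mir-219a-2 alone.

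Changes between groups were tested with limma on log2(normalized count + 1) over the 299 hairpins that reached 10 normalized counts in at least 2 libraries, and p-values were adjusted over all 299 by the Benjamini-Hochberg method. A hairpin is called where the adjusted p is under 0.05. Each of the 9 members was among the 299. In whole or sorted tissue, fewer cells of a type and less RNA per cell cannot be told apart. The added 1 shrinks fold changes of hairpins near 0. A 0 in a shallow library can instead enlarge them, since the fit averages log values: E8.5 KO replicate 3 has such a 0 for miR-9 and mir-128-2. Errors are standard errors (SE).

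Between E7.5 and E8.5 in WT, mir-219a-2 rose and the other members were not called. The second hairpin of miR-219a-5p, mir-219a-1, already had 5 and 10 reads in the E7.5 WT libraries. mir-219a-2 went from 0 reads in both E7.5 libraries to 14.4 to 23.7 normalized counts in the 3 E8.5 libraries. With 3 reads over the E7.5 group taken as its floor, it was at least 28.8-fold higher. The fitted log2 change, which depends on the pseudocount and is no bound, was 4.33 ± 0.997 (limma adjusted p = 0.00521). That is 1 of 9 members called higher, where 4 of all 299 hairpins were (1.34%) and 51 were called lower (17.1%). With the E7.5 WT replicate 1 left out, none of the 9 was called.

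mir-124-2 came next in size, at 4.68 and 4.39 normalized counts in E7.5 WT and 29.4, 17.6 and 17.8 in E8.5 WT. Its log2 change was 1.99 ± 0.76 and missed the threshold (limma adjusted p = 0.0908), although edgeR and DESeq2 on the recovered reads called it, along with 29.4% and 30.1% of the 299 hairpins in either direction. mir-124-1 and mir-124-3 gave 1.40 ± 0.75 and 1.37 ± 0.73 (limma adjusted p = 0.251 and 0.249). The median over the 9 members was -0.003, beside -0.48 over all 299 hairpins. It was unaltered with mir-219a-2 at its bound. TMM and library-sum scaling moved the median of all hairpins by 0.47 and 0.58, and relative to it the members' median was 0.48 and 0.51, beside 0.47 with the authors' factors. miR-9 and miR-128 gave log2 changes from -0.68 to -0.003 with errors of 0.70 or more.

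Between E8.5 and E9.5 in WT none of the 9 members was called, where 3.01% of the 299 hairpins were (1.34% higher and 1.67% lower). At an unadjusted p under 0.05 the count was also 0 of 9, where 14.4% of the 299 were. edgeR and DESeq2 called 0 of 9, where they called 9.36% and 13.7% of the 299. The 3 miR-124 hairpins and mir-219a-2 were lower in both E9.5 libraries than in all E8.5 libraries (4 of 9, where 24.7% of the 299 hairpins were lower without overlap). mir-124-1 gave -0.93 ± 0.75 and mir-219a-2 gave -1.83 ± 0.997 (limma adjusted p = 0.659 and 0.418). For mir-9-3 and both miR-128 hairpins the change lay between -0.18 and 0.13. mir-9-1 and mir-9-2 gave 0.38 ± 1.34 and 0.41 ± 1.33.

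In KO the fitted step from E7.5 to E8.5 was larger for miR-124 than in WT, a difference not tested by itself. mir-124-2 stood at 7.15 and 4.38 normalized counts in E7.5 KO and at 42.6, 48.6, 38.7 and 183 in E8.5 KO, without overlap. Its log2 change was 3.25 ± 0.72 (limma adjusted p = 0.00334). mir-124-1 stood at 33.4 and 9.86 and then at 75.7, 53.6, 58.0 and 209, and rose by 2.13 ± 0.71 on the log2 scale (limma adjusted p = 0.0339). mir-124-3 rose by 2.26 ± 0.69 (limma adjusted p = 0.0223). These 3 rows share reads and count as 1 microRNA.

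mir-219a-2 again went from 0 reads in the E7.5 libraries to 3.15 to 58.0 normalized counts. Its level pooled over E8.5 KO was at least 5.66-fold higher than 3 reads over the E7.5 KO group would give. Without the E8.5 KO libraries of under 10000 reads it was at least 4.15-fold higher. The fitted log2 change was 4.15 ± 0.95 (limma adjusted p = 0.00389). In all, 4 of 9 members were called higher and 0 lower, where 10.4% of the 299 hairpins were called higher and 20.7% lower (31.1% in all, and 40.1% at an unadjusted p under 0.05). edgeR and DESeq2 called the same 4 members, beside 30.4% and 31.8% of the 299. The median over the members was 0.55, beside -0.60 over all 299 hairpins, and stayed so with mir-219a-2 at its bound. TMM and library-sum scaling moved the median of all hairpins by 0.02 and 0.56. The members stood 1.02 and 1.26 above it, beside 1.15 with the authors' factors. The miR-9 hairpins changed sign between alternatives and none was called.

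Without the 2 E8.5 KO libraries of under 10000 reads, mir-124-2 and mir-219a-2 were still called and mir-124-1 and mir-124-3 were not. The same 2 calls were left without E7.5 KO replicate 2 and without E8.5 KO replicate 4. The difference between the KO and WT steps was not tested by itself. With copies averaged to 1 entry before the fit, miR-124 gave a log2 change of 2.41 ± 0.70 in KO (limma adjusted p = 0.0165) and 1.48 ± 0.74 in WT (0.213).

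From E8.5 to E9.5 in KO the 2 miR-128 hairpins rose. mir-128-1 stood at 110.4, 21.4, 58.0 and 33.6 normalized counts in the E8.5 libraries and at 144 and 284 at E9.5, without overlap. Its log2 change was 2.10 ± 0.66 (limma adjusted p = 0.0334). mir-128-2 stood at 69.4, 17.9, 0 and 22.4 and then at 99.8 and 287. It gave 3.68 ± 1.22 (limma adjusted p = 0.0395, and 0.00334 to 0.322 over its alternatives). The 0 is that of replicate 3, where 3 reads would have been 58.0 normalized counts. The change of mir-128-2 was 2.23 without the 2 libraries of under 10000 reads, 2.55 in edgeR and 2.56 in DESeq2. This was 2 of 9 members called higher, where 18.4% of the 299 hairpins were called higher and 8.7% lower (27.1% in all). At an unadjusted p under 0.05 it was 5 of 9, where 39.5% of the 299 were. These were the miR-9 and miR-128 hairpins, and copies of a family are not independent.

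The miR-9 hairpins gave changes from 3.11 ± 1.27 to 3.15 ± 1.27 and were not called (limma adjusted p = 0.0839 to 0.0865). Without the 2 E8.5 KO libraries of under 10000 reads these were 2.02 to 2.51, and mir-9-1 and mir-9-2 were called. That setting also called mir-128-2 and mir-219a-2 (limma adjusted p = 0.0439 and 0.0497), and mir-128-1 was lost (limma adjusted p = 0.0674). miR-9 in E8.5 KO spanned 0 to 64.7, all below the 88.5 and 162 of E9.5 KO. edgeR called mir-9-2 and mir-9-3 and DESeq2 called all 3, with 26.1% and 29.8% of the 299 hairpins. miR-124 did not pass, with log2 changes from 0.16 to 0.80 and overlapping groups. The 9 members had a median of 2.10, beside 0.40 over all hairpins. TMM and library-sum scaling moved the latter by -0.31 and -0.40, and the members stood 1.63 and 1.26 above it, beside 1.70 with the authors' factors. Both calls were lost under either scaling. They were lost as well without E8.5 KO replicate 2, without E9.5 KO replicate 1 and without E9.5 KO replicate 2. With any 1 of the E8.5 WT or E9.5 WT libraries left out only mir-128-1 was called, and the cause was not tested. Leaving out E8.5 KO replicate 1 gave 3 calls (mir-9-3 and both miR-128 hairpins). Leaving out replicate 4 gave 4 (the 3 miR-9 hairpins and mir-128-2).

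**Figure D3:**
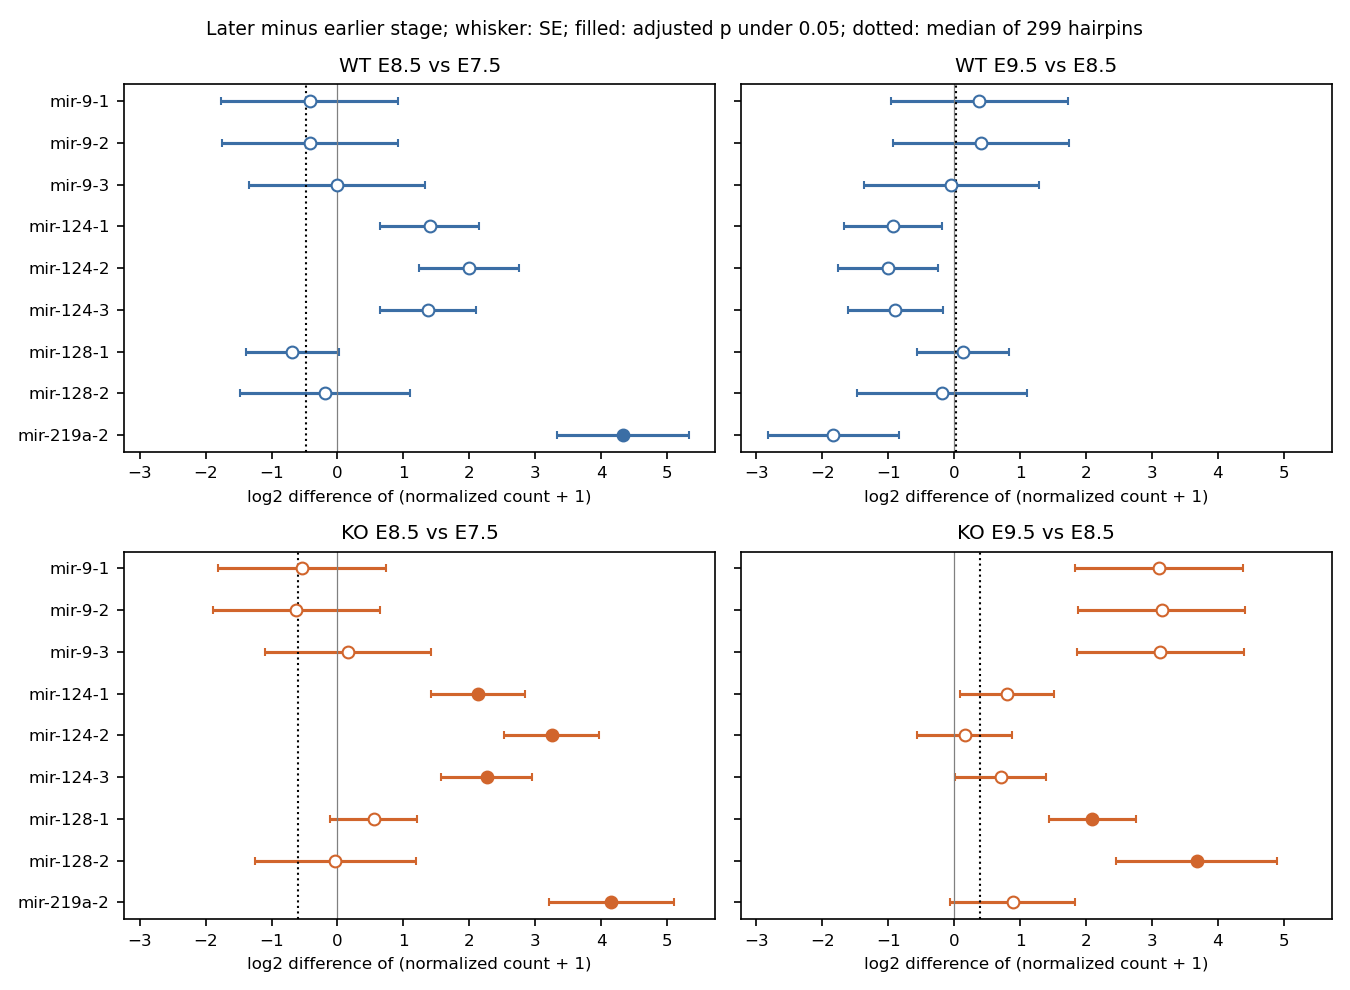
Change of each member between stages (log2 scale, later minus earlier) in WT (upper row) and KO (lower row), with SE as whiskers. Filled points passed an adjusted p of 0.05, and the dotted line is the median of 299 hairpins. mir-219a-2 is filled from E7.5 to E8.5 in both genotypes, the miR-124 hairpins are filled in the KO panel of that step, and the miR-128 hairpins in the KO step to E9.5.

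The comparison the study was designed for sets KO against WT at each stage. At E7.5 none of the 9 members was called, where 2.68% of the 299 hairpins were, all lower. At an unadjusted p under 0.05 the count was 0 of 9, where 9.36% of the 299 were. edgeR and DESeq2 called 0 of 9, where each called 1.34% of the 299. The miR-128 hairpins were lower in both KO libraries than in both WT libraries (2 of 9, where 20.4% of the 299 hairpins were lower without overlap). mir-128-1 stood at 121 and 56.4 in WT and at 21.5 and 46.0 in KO, a log2 difference of -1.36 ± 0.77 (limma adjusted p = 0.675). For mir-128-2 the values were 103 and 42.1 against 9.53 and 16.4, a difference of -2.30 ± 1.41 (limma adjusted p = 0.797). miR-9 and miR-124 overlapped between genotypes, and mir-219a-2 was at 0 reads in both.

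At E8.5 none of the 9 was called either, where 2.01% of the 299 hairpins were. edgeR called 0 (1.67% of the 299) and DESeq2 called 1, mir-124-2 (4.01% of the 299). That hairpin stood at 29.4, 17.6 and 17.8 in WT and at 42.6, 48.6, 38.7 and 183 in KO, without overlap. Its log2 difference was 1.52 ± 0.64 (unadjusted p = 0.0320, limma adjusted p = 0.454), and it was the only member with an unadjusted p under 0.05, where 8.36% of the 299 hairpins had. mir-124-3 was also higher in KO without overlap, by 1.09 ± 0.61 (limma adjusted p = 0.585), so 2 of 9 members did not overlap upward, where 5.02% of the 299 hairpins did, and none of the 9 downward, where 6.35% did. mir-124-1 overlapped, with 0.97 ± 0.63. TMM scaling moved the median of all hairpins by -0.59 and library-sum scaling by 0.19, and the 3 miR-124 differences remained above 0 under both.

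E8.5 KO replicate 4 and E8.5 WT replicate 2 carry the same number in their labels. Within that pair miR-124 stood at 203 against 30.0, miR-9 at 64.7 against 32.9, miR-128 at 28.0 against 46.1 and mir-219a-2 at 29.8 against 23.7. This is 1 library each, with no replicate check. mir-128-2 was lower by -2.15 ± 1.08 (limma adjusted p = 0.510) and overlapped, with a KO library at 69.4 and another at 0 reads. For miR-9, mir-128-1 and mir-219a-2 the sign of the difference changed between alternatives.

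At E9.5 all 9 members were higher in both KO libraries than in both WT libraries, and none was called. Copies of a family are not independent, so these are not 9 separate results. The share called among the 299 hairpins was 0.669%, and 35.5% were higher in KO without overlap. mir-124-1 stood at 18.5 and 25.6 in WT and at 95.4 and 226 in KO, a log2 difference of 2.7 ± 0.82. mir-124-2 stood at 9.41 and 10.6 against 57.2 and 84.1, and differed by 2.68 ± 0.83. mir-124-3 differed by 2.69 ± 0.80, and the limma adjusted p was 0.168 for each of the 3.

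mir-219a-2 stood at 7.35 and 2.81 against 20.5 and 49.3 (2.55 ± 1.09, limma adjusted p = 0.250). mir-128-1 stood at 42.5 and 74.2 against 144 and 284 (1.83 ± 0.77, limma adjusted p = 0.246). mir-128-2 differed by 1.71 ± 1.41 and the miR-9 hairpins by 2.13 to 2.22 with errors of 1.46 to 1.47 (limma adjusted p = 0.397 to 0.506). The miR-124 hairpins, mir-128-1 and mir-219a-2 had an unadjusted p under 0.05, which is 5 of 9 members, where 17.1% of the 299 hairpins had.

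The members' median at E9.5 was 2.22, beside 0.02 over all hairpins. TMM scaling moved the latter by -0.86 and library-sum scaling by -0.35. Relative to the median of all hairpins the members stood at 1.95 and 2.05, beside 2.20 with the authors' factors. Each of the 9 differences remained above 0 in every alternative run. DESeq2 called 6 of 9, the miR-9 and miR-124 hairpins, and it called 14% of the 299 hairpins in either direction. edgeR called 0 of 9 and 0.669% of the 299.

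Several measures moved with genotype at E9.5, and their part in the difference was not tested. The KO libraries held 39667 and 24184 reads and the WT libraries 323389 and 136665. The summed level of 5 endoderm and liver hairpins was 152 to 326 in WT and 763 to 2361 in KO. That of 5 vascular hairpins was 159 to 200.0 against 377 to 806, with 2 of the 5 at 0 in either group. That of 7 epithelial hairpins was 26.9 to 29.0 against 128 to 194. The 5 mesenchymal hairpins went the other way, at 1630 to 1779 in WT and 676 to 747 in KO. Of 6 muscle hairpins 1 was at 0 in WT and 3 in KO, and their sum was 6.61 to 59.3 against 57.2 to 60.9. Of 8 blood hairpins 4 were at 0 in WT and 3 in KO, among them mir-451a at 0 in all libraries, and their sum was 8.38 to 9.36 against 11.6 to 20.5.

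**Figure D4:**
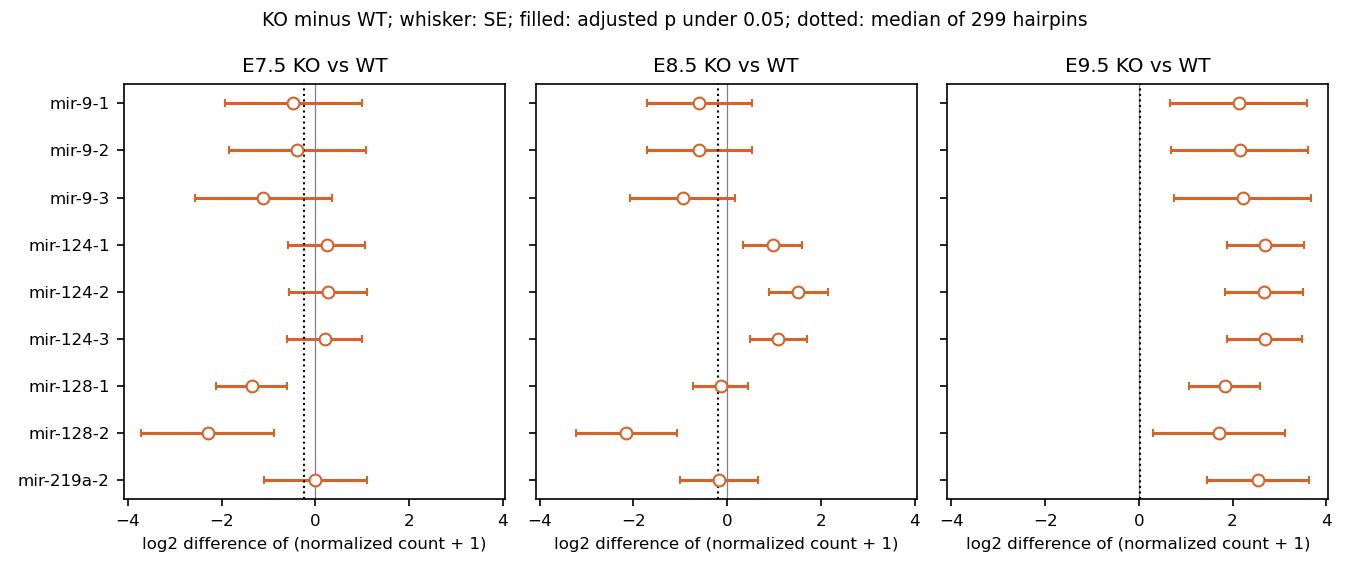
KO minus WT difference of each member at the 3 stages (log2 scale, SE as whiskers, dotted line at the median of 299 hairpins). No point is filled, since none passed an adjusted p of 0.05. At E9.5 all 9 lie between 1.71 and 2.7.

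Whether the KO difference itself varied between stages was asked with an F test of the interaction. None of the 9 members passed, where 2.34% of the 299 hairpins did. For each miR-124 hairpin the limma adjusted p was 0.471. mir-128-1 was the only member with an unadjusted p under 0.05 (0.0325, limma adjusted p = 0.352), where 12% of the 299 hairpins had. edgeR called 0 of 9 (2.01% of the 299) and DESeq2 called 1, mir-128-2 (3.68% of the 299). In the fit with copies averaged, miR-128 differed by -1.71 ± 0.76 at E7.5, -0.63 ± 0.58 at E8.5 and 1.78 ± 0.76 at E9.5 (limma adjusted p of the interaction 0.253).

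Of 17 other hairpins of neural microRNAs, 5 passed the filter, and 3 had 0 reads in all libraries (mir-219b, mir-219c and mir-338, the last an oligodendrocyte microRNA). The other 9 had reads below the minimum. From E7.5 to E8.5 in KO 2 of the 5 were called higher, where 10.4% of the 299 hairpins were. mir-219a-1 stood at 0 and 1.10 normalized counts in E7.5 KO and at 26.8, 32.9, 58.0 and 56.0 in E8.5 KO, a log2 change of 4.86 ± 0.81 (limma adjusted p = 3.66e-04). In WT the same step gave 2.17 ± 0.85 for mir-219a-1 without overlap, which limma did not call (adjusted p = 0.0996) and edgeR and DESeq2 did (0.0158 and 0.00549). mir-384, a brain-enriched microRNA, had 0 reads in both E7.5 KO libraries and 7.89, 14.3, 0 and 11.2 normalized counts at E8.5. By the same floor its level pooled over the group was at least 5.28-fold higher (limma adjusted p = 0.0484). The groups overlapped at 0, and mir-384 was called in only 7 of 26 alternatives.

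The 2 mir-219a hairpins separated at the next step. From E8.5 to E9.5 in KO mir-219a-1 fell by 3.43 ± 0.81 on the log2 scale, to 2.93 and 2.90 normalized counts from 2 and 1 reads (limma adjusted p = 0.0107). mir-219a-2 gave 0.89 ± 0.95 over the same step and was not called. Without the E8.5 KO libraries of under 10000 reads mir-219a-2 gave 2.16 and was called (limma adjusted p = 0.0497). In WT the same step gave -1.64 ± 0.85 and -1.83 ± 0.997, and neither was called. No other of the 5 was called in any of the 7 comparisons of 2 groups. At E9.5 in KO against WT the 5 had a median difference of 0.12, with mir-132, a microRNA of active neurons, at 5.29 and 7.49 against 13.2 and 20.3. mir-218-1 and mir-218-2, the motor neuron microRNA miR-218, stood at 24.3 to 38.8 and 34.9 to 50.8 in WT and at 54.3 to 110.2 and 34.8 to 60.2 in KO. The other 2 had values below 0: mir-384 stood at 16.02 and 13.1 in WT and at 8.80 and 11.6 in KO (-0.48 ± 1.11), and mir-219a-1 differed by -0.59 ± 0.94 with overlap. None of the 5 was called.

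The hairpins whose levels over the 15 libraries were most like each family are given as a description. Libraries share depth, stage and cell source, so no p is attached. For miR-9 these were mir-125b-1, mir-361 and mir-192, with Pearson's r of 0.93, 0.91 and 0.90. In the shallow E8.5 KO replicate 3 all 3 were at 0 reads together with miR-9. mir-192, a microRNA of liver and gut, stood at 84.6 ± 30.8 in E9.5 WT and 492 ± 314 in E9.5 KO (SD, n = 2 each).

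For miR-124 the most alike were mir-8112, mir-375 and mir-140, with r of 0.87, 0.81 and 0.81. For miR-128 they were mir-194-2, mir-204 and mir-26a-1, with r of 0.82, 0.81 and 0.78. mir-204 stood at 6.66 ± 3.81 in E9.5 WT and 41.6 ± 1.37 in E9.5 KO. For miR-219a they were mir-149, mir-124-2 and mir-140, with r of 0.87, 0.82 and 0.77. Among the 4 families themselves miR-124 and miR-219a were most alike (r = 0.76), then miR-9 and miR-128 (r = 0.59), and the other 4 pairs lay between -0.01 and 0.29.

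**Figure D5:**
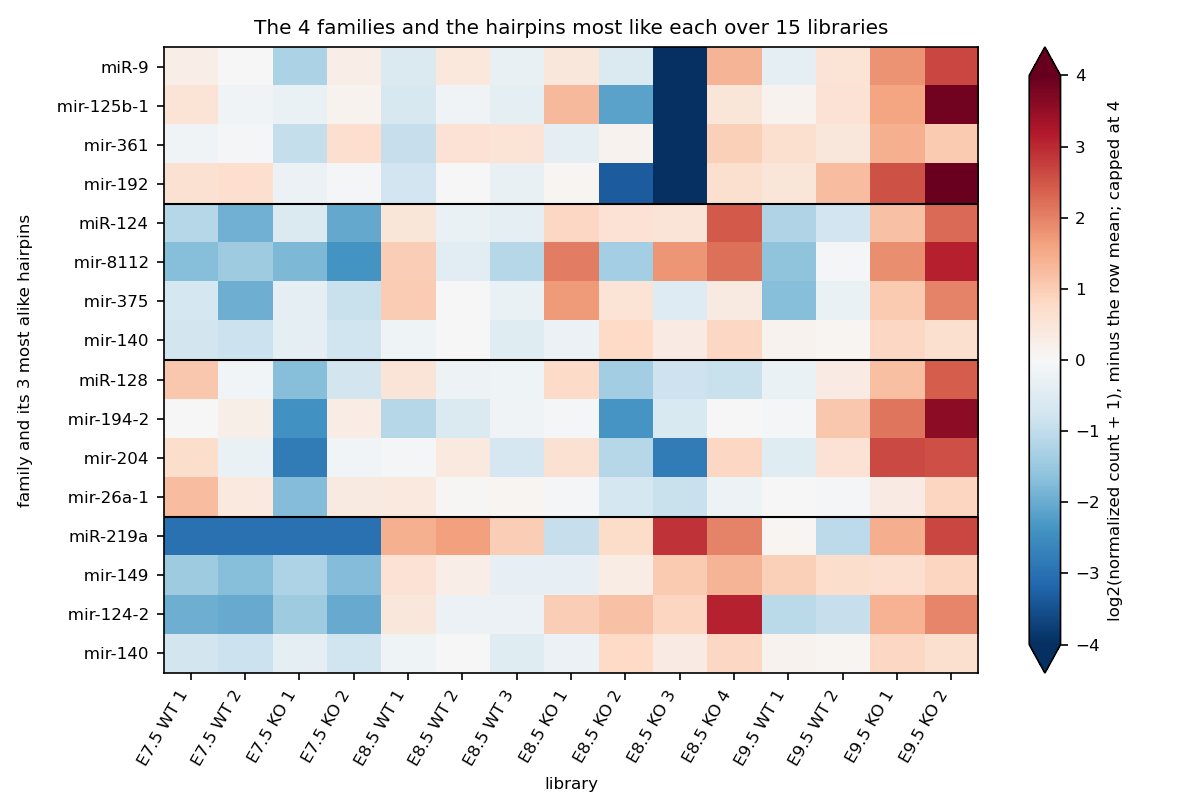
Level of the 4 families and of the 3 hairpins most like each (log2 of normalized count + 1, minus the mean of the row, colour capped at 4) in the 15 libraries. The E9.5 KO columns are above the row mean in each row, and E8.5 KO replicate 3 is the lowest column for miR-9 and its 3 alike hairpins.

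In the authors' deposited table of Mfuzz clusters, 413 hairpins were placed in clusters. The 3 miR-124 hairpins, mir-219a-2 and mir-219a-1 shared cluster 4, which held 26 hairpins. mir-9-1 and mir-9-2 were in cluster 7 of the authors' deposited table (49 hairpins) and mir-9-3 in cluster 2 (29 hairpins). mir-128-1 was in cluster 3 of the authors' deposited table (155 hairpins) and mir-128-2 in cluster 5 (63 hairpins), so copies of a family were split for miR-9 and miR-128 and kept together for miR-124.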

How the data were processed

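Hairpin reads of 15 small RNA libraries (NEXTflex Small RNA-seq kit v3) were analysed. Per the submitters' processing notes, reads were checked with FastQC 0.11.5 and aligned with STAR 2.7.0f to mm10. The counting tool, how it treats reads that match several hairpins, and how size factors were made are each not given in the sources used here. Deposited signal is a normalized count, that is reads divided by 1 factor per library. Each of its 6086 values above 0 was a whole multiple of 1 read (100%, within 0.001), so reads were recovered. The authors' deposited cluster numbers, an other unit, were only described. All 2108 entries named for mature arms were 0, so arms could not be separated. 1 more column held per-library values of no listed sample and was not used.

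limma 3.58.1 (eBayes with trend, two-sided, R 4.3.3) was fitted to log2(normalized count + 1) with 6 group means, for hairpins with at least 10 normalized counts in 2 libraries. The code was run on simulated data with large changes in hairpins of high level. That run does not give the power or error for the 9 members. Alternatives were edgeR 4.0.16 (quasi-likelihood) and DESeq2 1.42.0 on recovered reads, TMM and library-sum scaling, other filters, a pseudocount of 10, only the groups compared, a replicate block, copies summed or averaged, the libraries under 10000 reads left out and each library left out. No replicates were merged, since each pair differed beyond counting noise (chi-square 2.09 to 203 per degree of freedom). Floors (3 reads) cover counting error only. The members, lists and tests were chosen with earlier results of these data known. Named hairpins were all 9 members, called hairpins of the other neural list (otherwise its 4 highest) and the 3 most alike per family, each with a mean of at least 10.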

Additional observations from a re-analysis of the deposited data

Results flagged for a closer look

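Groups of 4 libraries were searched for a library that stands apart by Dixon's criterion, which only E8.5 KO allows, in 13 sets of values (9 hairpins and 4 families). Chance flags about 1 in 20 groups, and copies of a family are not independent. E8.5 KO replicate 4 stood apart for miR-124, at 202.7 normalized counts against 65.2 for the next library. Its 3 hairpins did so too: mir-124-1 at 209 against 75.7, mir-124-2 at 183 against 48.6 and mir-124-3 at 216 against 77.3. This library held 9757 reads, with 56, 49 and 58 reads of the 3 hairpins. E8.5 KO replicate 1 stood apart for miR-128, at 89.9 against 29.0 for the next library.

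The miR-128 hairpins were lower in both KO libraries at E7.5 and higher in both at E9.5. The KO difference at E9.5 minus that at E7.5 was 3.19 for mir-128-1 and 4.02 for mir-128-2 on the log2 scale. The test of the interaction did not pass for either (limma adjusted p = 0.352 and 0.464), the KO difference at E9.5 carries the limits given with it, and the cause was not tested.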

How the results depend on the processing

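Counts of called members out of 9 moved in these cases, and the cause was not tested. DESeq2 gave 1 at E8.5 and 6 at E9.5 for KO against WT, and 1 for the interaction, where limma gave 0. From E7.5 to E8.5 in WT (1 called) it was 2 with edgeR, DESeq2, library-sum scaling, only the groups compared and without the libraries under 10000 reads, and 0 with a minimum of 50 (8 members left) or a pseudocount of 10. Leaving out 1 library gave 0 to 1. From E7.5 to E8.5 in KO (4 called) it was 2 with no filter, the replicate block and without the libraries under 10000 reads, 2 of 4 families with copies summed or averaged, 1 with only the groups compared, and 3 with TMM scaling (mir-124-1 lost) or a minimum of 50 (8 members left). With copies summed or averaged, the miR-219a entry also held mir-219a-1, which is not a member, so that call is no separate check of mir-219a-2. Leaving out 1 library gave 2 to 4. From E8.5 to E9.5 in KO (2 called) it was 4 with edgeR and without the libraries under 10000 reads, 5 with DESeq2 and a pseudocount of 10, 0 with TMM scaling, library-sum scaling, no filter and only the groups compared, and 1 of 4 families with copies summed or averaged. Leaving out 1 library gave 0 to 4. With the replicate block this step had 2 calls, mir-9-1 and mir-9-2 in place of the miR-128 hairpins. Deviations of same-numbered WT and KO libraries correlated at -0.23 at E7.5, 0.09 to 0.14 at E8.5 and 0.19 at E9.5. With 2 libraries in a group their deviations mirror each other, so E7.5 and E9.5 give 1 value each. These values cannot decide whether replicate numbers pair the libraries. No direction named for a called member reversed. At E9.5 TMM scaling moved the members' median KO difference from 2.22 to 1.11 and that of mir-128-1 from 1.83 to 0.70. Library-sum scaling moved that median from 2.22 to 1.72. In KO it moved the members' median from 2.10 to 1.26 for the step from E8.5 to E9.5. For the KO step from E7.5 to E8.5 the median went from 0.55 to 1.22.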
